A study of Mus musculus with 8 samples.

Results

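The insulin-like growth factor (IGF) family was examined in chondrocytes of the embryonic mouse breastbone, in cells described by the series as expressing a mutant Idh1. The family was taken as 10 genes chosen by name: the ligands Igf1 and Igf2, the receptors Igf1r and Igf2r, and the binding proteins Igfbp2, Igfbp3, Igfbp4, Igfbp5, Igfbp6 and Igfbp7. All 10 were found among the 16432 genes listed, and all 10 passed the filter on low values in each comparison. The family members Igfbp1 and Igfbpl1 were not analysed here.

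IGF1 and IGF2 are secreted peptides that act through the type 1 IGF receptor, a tyrosine kinase that signals by way of insulin receptor substrates to PI3 kinase and AKT and to the MAP kinases, and in growth cartilage they promote the growth of chondrocytes and of the bone. The IGF2 receptor, which is also the cation-independent mannose-6-phosphate receptor, takes up IGF2 and carries it to the lysosome. The binding proteins hold most extracellular IGF and set how much reaches the receptors, and proteases of the pappalysin family release it by cleaving some of them.

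RNA was sequenced from primary sternal chondrocytes of C57BL/6 embryos at embryonic day 18.5. 3 libraries were Col2a1Cre;Idh1 fl/+ (the Cre-Idh1 cells), 2 were Idh1 fl/+ without Cre (the floxed control) and 3 were Col2a1Cre without the floxed allele (the Cre control). Col2a1Cre places Cre recombinase under Col2a1, which encodes the chief collagen of cartilage, so recombination is directed to cells that use Col2a1, and cells of the digested sternum that do not use it are sequenced along with them. The series' design text gives the floxed genotype as fl/fl whereas the sample labels give fl/+, and the labels were followed. The labels do not say whether libraries came from separate animals or litters, and the p-values therefore speak only of how these samples vary, which may in part be technical variation.

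The libraries held 31860422 to 44988540 recovered reads. The labelled cell type was borne out by its markers, since Col2a1 alone took 15.9% to 21.3% of the reads in a library. Idh1 stood at 3465 to 3948 normalized counts in the Cre-Idh1 libraries, against 2263 to 2452 in the floxed control and 3624 to 3991 in the Cre control. The values sum both alleles and do not tell a mutant transcript from a normal one. Female embryos, by Xist and Y-linked genes, gave Cre-Idh1 replicate 1 and, in the Cre control, replicates 1 and 3; male embryos gave the rest. Values are normalized counts, that is, reads divided by the authors' size factor of the library, and differences are on the log2(value + 1) scale. A gene was said to rise or fall when limma's two-sided adjusted p, over all genes tested, was under 0.05. In these bulk libraries, fewer cells of a type and less RNA per cell cannot be told apart.

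In brief, the RNAs of 2 binding proteins, Igfbp4 and Igfbp6, were 1.81-fold to 2.32-fold as abundant in Cre-Idh1 cells as in either control. Igfbp3 was also higher and Igfbp7 lower in each Cre-Idh1 library than in each control library, and both passed the test when both control groups were used in 1 fit. Neither ligand and neither receptor passed the test in any comparison, although Igf2 and Igf2r passed by DESeq2 against the Cre control. Around the family, the IGFBP protease gene Pappa rose while its relative Pappa2 fell.

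The members covered a wide range of levels. Per kilobase of exon, the scale on which genes of different length can be compared, Igf2 had a median of 72540 normalized counts per kilobase over the 8 libraries. Igf2r followed at 4897, Igfbp7 at 2521, Igfbp5 at 679, Igfbp4 at 344, Igfbp6 at 295, Igf1r at 193, Igfbp3 at 30.2, Igfbp2 at 11.7 and Igf1 at 4.05 normalized counts per kilobase. The ranges over the 8 libraries overlapped between these neighbours in the order: Igfbp5 and Igfbp4, Igfbp4 and Igfbp6, Igfbp3 and Igfbp2, and Igfbp2 and Igf1. The other neighbours did not overlap. Dividing by the longest transcript in place of all exons (an alternative added after seeing the values) gave the same order. On that scale the ranges of Igfbp6 (215 to 780) and Igf1r (259 to 315) overlapped as well. Igf2 thus stood far above the other members, ranking between 4 and 9 of the 16432 genes by normalized count in the single libraries, whereas Igf1 lay near the limit of counting with 30 to 99 reads per library. Igfbp2, with 17 to 44 reads, and Igfbp3, with 41 to 156, were also low, and counting error alone at the lowest of these counts is 24.3% for Igfbp2 and 15.6% for Igfbp3.

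**Figure D1:**
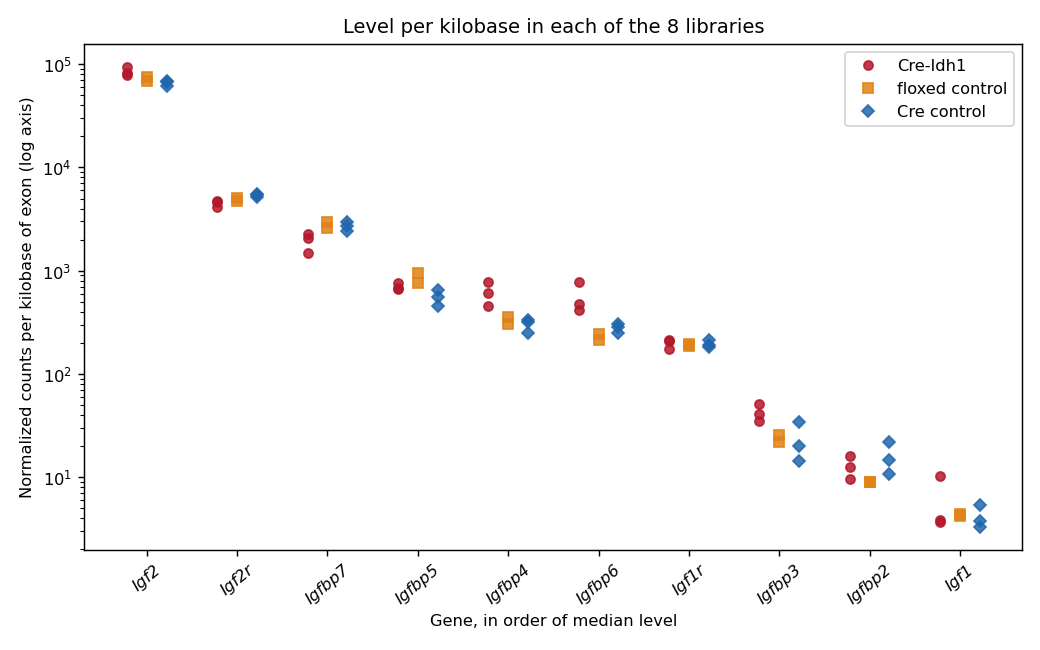
Level of each member in each of the 8 libraries, in normalized counts per kilobase of exon on a log axis, with genes in order of their median; circles are Cre-Idh1, squares the floxed control and diamonds the Cre control. Igf2 lies above all other members with a median of 72540 and Igf1 lies lowest with a median of 4.05.

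Among the ligands, Igf2, the main fetal growth factor of the family, had 450800, 537369 and 469883 normalized counts in the Cre-Idh1 libraries, against 396303 and 433993 in the floxed control and 349660, 393193 and 381937 in the Cre control. Each Cre-Idh1 library lay above each control library. The difference did not pass the test: the log2 fold change was 0.37 ± 0.18 against the Cre control (SE; limma adjusted p = 0.175) and 0.22 ± 0.19 against the floxed control (limma adjusted p = 0.461). Igf2 passed the threshold against the Cre control by DESeq2's Wald test on the recovered reads (adjusted p = 0.00336) and in the authors' deposited table (adjusted p = 0.00211), but not against the floxed control by either (0.235 and 0.128). Against the mean of both controls Igf2 passed by DESeq2 (adjusted p = 0.00427) and by edgeR, but not by limma. Igf2 took 1.21% to 1.37% of all recovered reads in Cre-Idh1 libraries, against 1.07% to 1.10% in the floxed control and 0.998% to 1.05% in the Cre control.

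Igf1, the ligand that growth hormone induces after birth, had 102, 36.3 and 38.2 normalized counts in the Cre-Idh1 libraries, against 42.0 and 43.8 in the floxed control and 33.0, 37.5 and 52.8 in the Cre control. Cre-Idh1 replicate 1 was the one high library and the other two lay among the controls. The log2 fold change was 0.37 ± 0.41 against the Cre control (limma adjusted p = 0.565) and 0.28 ± 0.47 against the floxed control (limma adjusted p = 0.717), and without Cre-Idh1 replicate 1 it was -0.11 and -0.20. Macrophages, which are known to make Igf1, have 9 listed markers here, all above 0 in every library, and their summed level was 3751 to 8407 normalized counts in Cre-Idh1 libraries, against 2674 to 3524 in the floxed control and 2428 to 4671 in the Cre control. The highest sum, 8407, was that of Cre-Idh1 replicate 1, and 5502 of it was the single gene Lyz2. The next highest, 4671, was that of Cre control replicate 2, where Igf1 was 37.5. Of the macrophage markers 5 of 9 tested rose against the floxed control, where 7.47% of all genes did, and 4 of 8 against the Cre control, where 9.8% did. Among them was the complement gene C1qb (log2 fold changes 2.27 and 2.25). The part of these cells in the Igf1 values was not tested.

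Of the receptors, Igf1r, the signalling receptor, had 3545, 3536 and 2954 normalized counts in the Cre-Idh1 libraries, against 3286 and 3127 in the floxed control and 3594, 3185 and 3063 in the Cre control. The 3 groups overlapped. Its log2 fold change was 0.03 against the Cre control (95% confidence interval -0.21 to 0.26; limma adjusted p = 0.884) and 0.06 against the floxed control (-0.22 to 0.33; limma adjusted p = 0.776).

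Igf2r had 43156, 43753 and 38241 normalized counts in the Cre-Idh1 libraries, against 46834 and 44337 in the floxed control and 51725, 50098 and 48215 in the Cre control. Every Cre-Idh1 library lay below every control library, with the floxed control between the others. The log2 fold change was -0.26 ± 0.10 against the Cre control (limma adjusted p = 0.105) and -0.13 ± 0.12 against the floxed control (limma adjusted p = 0.487). Against the Cre control Igf2r passed by DESeq2 (adjusted p = 0.0379), and the authors' deposited table gives it an adjusted p of 0.0175. Against the mean of both controls it passed by DESeq2 (adjusted p = 0.0444) but not by limma. The ratio of Igf2 to Igf2r normalized counts within a library, which no scaling between libraries can move, was 10.4 to 12.3 in Cre-Idh1 libraries, against 8.46 to 9.79 in the floxed control and 6.76 to 7.92 in the Cre control. Both genes have an overlapping antisense transcript, Igf2as (966 to 1168 normalized counts) and Airn (674 to 1251). The library kit keeps strand, but the sources used here do not give whether the counting used it, and reads of the overlapping stretches may be shared.

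H19, the maternally expressed non-coding RNA next to the paternally expressed Igf2, had 219501, 239426 and 244964 normalized counts in the Cre-Idh1 libraries, against 333595 and 328503 in the floxed control and 259802, 310059 and 291656 in the Cre control. Every Cre-Idh1 library was below every control library. H19 did not pass the test against either control alone (log2 fold change -0.29 ± 0.15 against the Cre control, limma adjusted p = 0.222; -0.50 ± 0.16 against the floxed control, limma adjusted p = 0.0793). It passed against the floxed control by edgeR (adjusted p = 0.0287), by DESeq2 (0.000129) and with total-read scaling (0.0441), and against the Cre control by DESeq2 (0.0344). In the fit of all 8 libraries against the mean of both control groups it fell (-0.39 ± 0.13; limma adjusted p = 0.0440). That call was lost when any library other than Cre control replicate 1 was left out (adjusted p 0.0690 to 0.107), and with a pseudocount of 10 (0.0662). The ratio of Igf2 to H19 within a library was 1.92 to 2.24 in Cre-Idh1 cells, against 1.19 to 1.32 in the floxed control and 1.27 to 1.35 in the Cre control. This ratio was computed after the values had been seen and carries no test. The antisense neighbours Igf2as and Airn did not pass in these comparisons, and Ins2 was not analysed here.

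**Figure D2:**
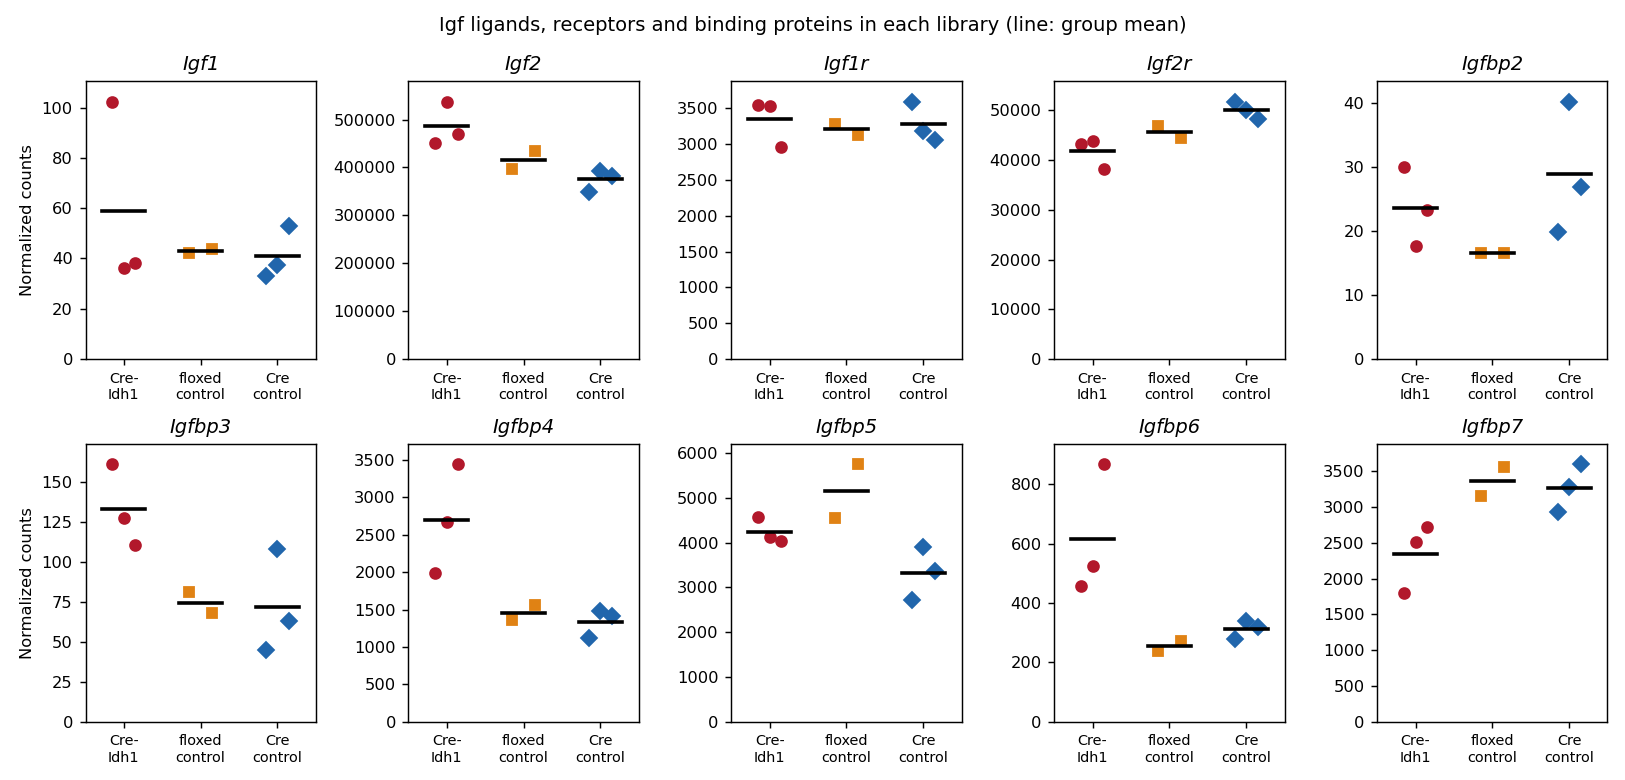
Normalized counts of the 10 members in each library (points) with the group mean (line), Cre-Idh1 on the left, then the floxed control and the Cre control; each panel has its own axis, starting at 0. Igfbp4 and Igfbp6 lie higher in all 3 Cre-Idh1 libraries than in the 5 controls, and Igfbp7 lies lower.

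All members that passed the test by limma were binding proteins. Igfbp4, a soluble inhibitor of IGF action that PAPP-A cleaves, had 1994, 2669.95 and 3442 normalized counts in the Cre-Idh1 libraries, against 1356 and 1561 in the floxed control and 1113, 1479 and 1416 in the Cre control. All Cre-Idh1 libraries lay above all control libraries, although they spread more (2702 ± 724, SD, n = 3, against 1459 ± 145, n = 2, in the floxed control and 1336 ± 195, n = 3, in the Cre control). Igfbp4 rose 1.99-fold against the Cre control (log2 fold change 0.99 ± 0.19; limma adjusted p = 0.00869) and 1.81-fold against the floxed control (0.86 ± 0.21; limma adjusted p = 0.0382). The call against the Cre control held whichever library was left out (adjusted p at most 0.0429). The call against the floxed control was lost without Cre-Idh1 replicate 2 (0.0868), floxed control replicate 1 (0.215) or floxed control replicate 2 (0.191).

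Igfbp6, which prefers IGF2 over IGF1, had 458, 524 and 868 normalized counts in the Cre-Idh1 libraries, against 239 and 273 in the floxed control and 279, 339 and 318 in the Cre control. The groups did not overlap, and Cre-Idh1 replicate 3 was the highest library for Igfbp6 as it was for Igfbp4. Igfbp6 rose 2.32-fold against the floxed control (log2 fold change 1.21 ± 0.27; limma adjusted p = 0.0254) and 1.90-fold against the Cre control (0.93 ± 0.22; limma adjusted p = 0.0209). The call against the Cre control was lost without Cre control replicate 1 (0.0829), replicate 2 (0.0504) or replicate 3 (0.0734). The call against the floxed control was lost without Cre-Idh1 replicate 2 (0.0509), floxed control replicate 1 (0.152) or floxed control replicate 2 (0.162). Since embryo sex was not balanced, both genes were also read with it taken into account. With sex as a covariate the log2 fold change against the Cre control was 0.85 for Igfbp4 (limma adjusted p = 0.0122) and 0.80 for Igfbp6 (limma adjusted p = 0.0439). The floxed control libraries are both male, and the log2 fold change against them of the male Cre-Idh1 libraries (replicates 2 and 3) was 1.06 for Igfbp4 (limma adjusted p = 0.0129) and 1.40 for Igfbp6 (limma adjusted p = 0.0179). The female library left out there, Cre-Idh1 replicate 1, is the lowest Cre-Idh1 library for both genes. Its sex therefore cannot be told apart from its other traits.

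Igfbp3, the main carrier of IGFs in blood, had 161, 127 and 110.5 normalized counts in the Cre-Idh1 libraries, against 81.0 and 68.4 in the floxed control and 45.1, 108 and 63.1 in the Cre control. The Cre-Idh1 libraries lay above the controls, but Cre control replicate 2 came within a few counts of the lowest of them. Against either control alone Igfbp3 missed the threshold (log2 fold change 0.95 ± 0.31, limma adjusted p = 0.0646, against the Cre control; 0.81 ± 0.24, limma adjusted p = 0.0632, against the floxed control). By DESeq2 it passed against both (adjusted p = 0.0369 and 0.0376), and with all 8 libraries in 1 limma fit against the Cre control (0.0467). The authors' deposited table gives Igfbp3 an adjusted p of 0.0279 against the Cre control and 0.0580 against the floxed control. By limma it passed against the Cre control without Cre control replicate 2 (adjusted p = 0.0249) and against the floxed control without Cre-Idh1 replicate 3 (0.0304). In the fit of all 8 libraries Igfbp3 rose (0.88 ± 0.27; limma adjusted p = 0.0319), which no longer passed without Cre-Idh1 replicate 1 (0.101), Cre-Idh1 replicate 2 (0.0665), floxed control replicate 1 (0.0571) or replicate 2 (0.0946), or Cre control replicate 3 (0.0658). Endothelial cells also make Igfbp3, and their 8 markers, all above 0 in every library, summed to 264 to 899 normalized counts in Cre-Idh1 libraries, against 229 to 348 in the floxed control and 199 to 292 in the Cre control. The highest sum was that of Cre-Idh1 replicate 1, which was also the highest for Igfbp3. Cre-Idh1 replicates 2 and 3 stood in opposite order, with sums of 264 and 647 and Igfbp3 at 127 and 110.5. Of these 8 markers 0 rose against the floxed control, where 7.47% of all genes did, and 1 rose against the Cre control, where 9.8% did. This was the receptor gene Tie1 (log2 fold change 1.88, limma adjusted p = 0.0190). Tie1 missed the threshold against the floxed control (1.03, limma adjusted p = 0.207). The part of endothelial RNA in the Igfbp3 values was not tested.

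Igfbp7, a matrix-bound relative with low affinity for IGFs, went the other way, with 1796, 2512 and 2716 normalized counts in the Cre-Idh1 libraries, against 3163 and 3567 in the floxed control and 2933, 3287 and 3599 in the Cre control. Every Cre-Idh1 library lay below every control library, replicate 1 being the lowest. The log2 fold change was -0.50 ± 0.15 against the Cre control (limma adjusted p = 0.0520) and -0.54 ± 0.18 against the floxed control (limma adjusted p = 0.0863). Without Cre-Idh1 replicate 3 it passed against both (adjusted p 0.0171 and 0.0325). With embryo sex as a covariate it passed against the Cre control (0.0342). In the fit of all 8 libraries Igfbp7 fell (-0.52 ± 0.13; limma adjusted p = 0.0151), a call lost without floxed control replicate 2 (0.0567). In the authors' deposited table Igfbp7 has an adjusted p of 0.0122 against the Cre control and 0.0139 against the floxed control.

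Igfbp5, an abundant binding protein of skeletal tissue, had 4573, 4119 and 4031 normalized counts in the Cre-Idh1 libraries, against 4547 and 5749 in the floxed control and 2719, 3896 and 3361 in the Cre control. The Cre-Idh1 libraries lay between the controls, above all of the Cre control and overlapping the floxed control. The log2 fold change had opposite signs, 0.36 ± 0.13 against the Cre control (limma adjusted p = 0.0827) and -0.27 ± 0.13 against the floxed control (limma adjusted p = 0.193). Igfbp2, which is low in these cells, had 30.0, 17.6 and 23.4 normalized counts in the Cre-Idh1 libraries, against 16.6 and 16.7 in the floxed control and 19.8, 40.2 and 26.9 in the Cre control. The Cre-Idh1 libraries lay just above the floxed control and overlapped the Cre control (log2 fold changes 0.45 ± 0.39 and -0.26 ± 0.36; limma adjusted p = 0.456 and 0.653).

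**Figure D3:**
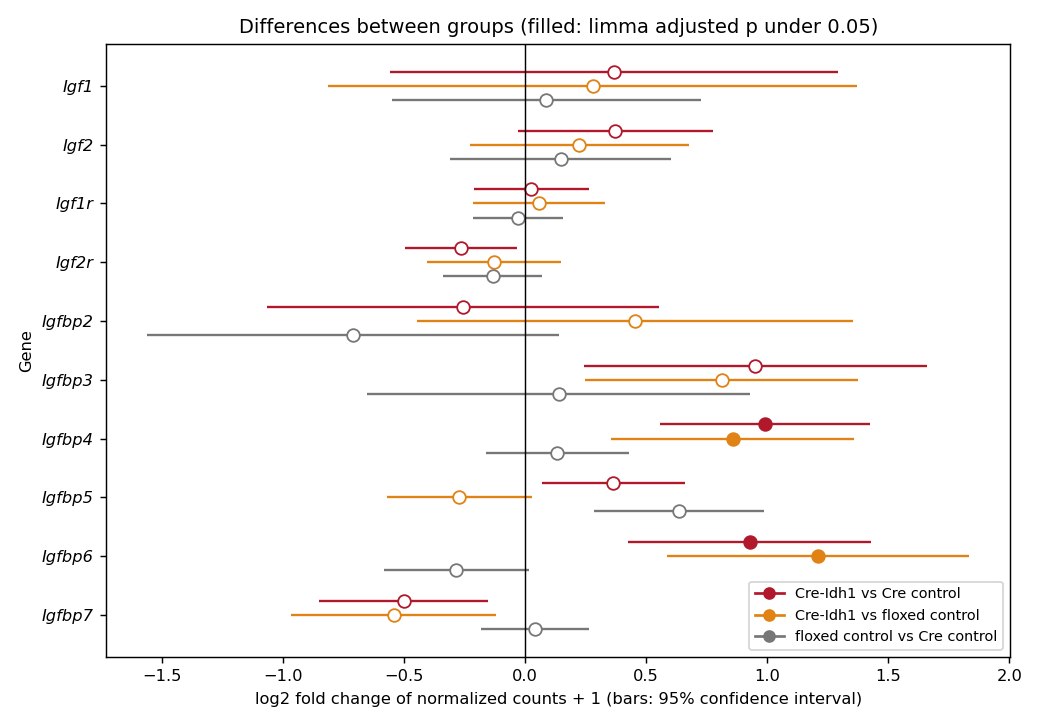
Log2 fold change of normalized counts + 1 for each member in the 3 pairwise comparisons, with 95% confidence intervals from limma; filled points have an adjusted p under 0.05. The filled points are those of Igfbp4 and Igfbp6 in both Cre-Idh1 comparisons.

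Counted together, 2 of the 10 members (20%) passed the test against the Cre control, both higher, where 9.8% of the 14851 genes tested rose, 9.39% fell and 19.2% passed in either direction. Against the floxed control the same 2 members passed, where 7.47% of 15212 genes rose, 6.96% fell and 14.4% passed. These comparisons share the Cre-Idh1 libraries, so they do not test the 2 genes independently. In the fit of all 8 libraries 3 members rose and 1 fell, where 15.3% of 15505 genes rose, 16% fell and 31.2% passed. By limma the share of members called was thus close to that of all genes. By DESeq2 6 of the 10 members passed against the Cre control, beside 3453 of 14851 genes. Against the floxed control 4 of the 10 passed by DESeq2, beside 3087 of 15212 genes. Whether the family as a whole differs from other genes was not tested. The libraries did not overlap for 5 members above and 2 below the Cre control, where 20.1% of all genes lay above, 20.9% below and 41% in either direction. Likewise 5 members lay above and 2 below the floxed control, where 26.6% of all genes lay above, 26.7% below and 53.4% in either direction. Set against all 5 controls, 4 members lay above and 2 below, where 17.4% of all genes lay above, 18% below and 35.4% in either direction. The median log2 fold change of the members was 0.37 against the Cre control and 0.25 against the floxed control, beside -0.00917 and 0.00202 for all genes tested.

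The 2 control groups were compared with each other to see how far they differ in the family. One carries the transgene and the other the floxed allele, and no group lacks both, so neither is seen alone. Embryo sex differs as well, since both floxed control libraries are male and Cre control replicates 1 and 3 are female. By limma 0 members passed between the floxed control and the Cre control, where 0.0134% of 14870 genes (2 genes) did. Without adjustment 1 member, Igfbp5, was under 0.05 (log2 fold change 0.64 ± 0.15; limma adjusted p = 0.394). DESeq2's Wald test called Igfbp5 alone (adjusted p = 0.0214), edgeR called 0 members, and the authors' deposited table gives Igfbp5 an adjusted p of 0.0523. Igf2 and Igfbp5 lay above and Igf2r, Igfbp2 and Igfbp6 below in each floxed control library relative to the Cre control, where 14.1% of all genes lay above, 10.7% below and 24.8% in either direction. For Igf2r, Igfbp2 and Igfbp5 the log2 difference between the controls (-0.13, -0.71 and 0.64) was as large as or larger than that of Cre-Idh1 cells from the floxed control (-0.13, 0.45 and -0.27).

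How the binding protein RNA divided within a library was examined as well, since shares do not depend on the scaling between libraries. Igfbp4 made up 22.1% to 30.8% of the summed normalized counts of the 6 Igfbp members in Cre-Idh1 libraries, against 13.9% to 14.4% in the floxed control and 15.7% to 16.2% in the Cre control. Igfbp7 made up 19.9% to 25.2% in Cre-Idh1 libraries, against 31.8% to 33.6% in the floxed control and 35.9% to 41.3% in the Cre control. In other words Igfbp4 exceeded Igfbp7 in each Cre-Idh1 library and was below it in each control library: the ratio of Igfbp4 to Igfbp7 normalized counts was 1.11, 1.06 and 1.27 in the Cre-Idh1 libraries, against 0.429 and 0.438 in the floxed control and 0.380, 0.450 and 0.393 in the Cre control. Igfbp6 made up 5.08% to 7.76% in Cre-Idh1 libraries, against 2.43% to 2.54% in the floxed control and 3.62% to 3.93% in the Cre control. Igfbp5 held 36.0% to 50.7% in Cre-Idh1 libraries, against 48.4% to 51.2% in the floxed control and 38.2% to 42.6% in the Cre control, and its share exceeded that of Igfbp7 in all libraries but Cre control replicates 1 and 3. The summed Igfbp counts themselves overlapped, at 9012 to 11190 in Cre-Idh1 libraries, against 9403 to 11235 in the floxed control and 7109 to 9150 in the Cre control. Per kilobase, the level of Igf2 was 18.1 to 24.8 times that of the 6 binding proteins together in Cre-Idh1 libraries, against 16.7 to 17.6 times in the floxed control and 16.0 to 17.9 times in the Cre control.

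**Figure D4:**
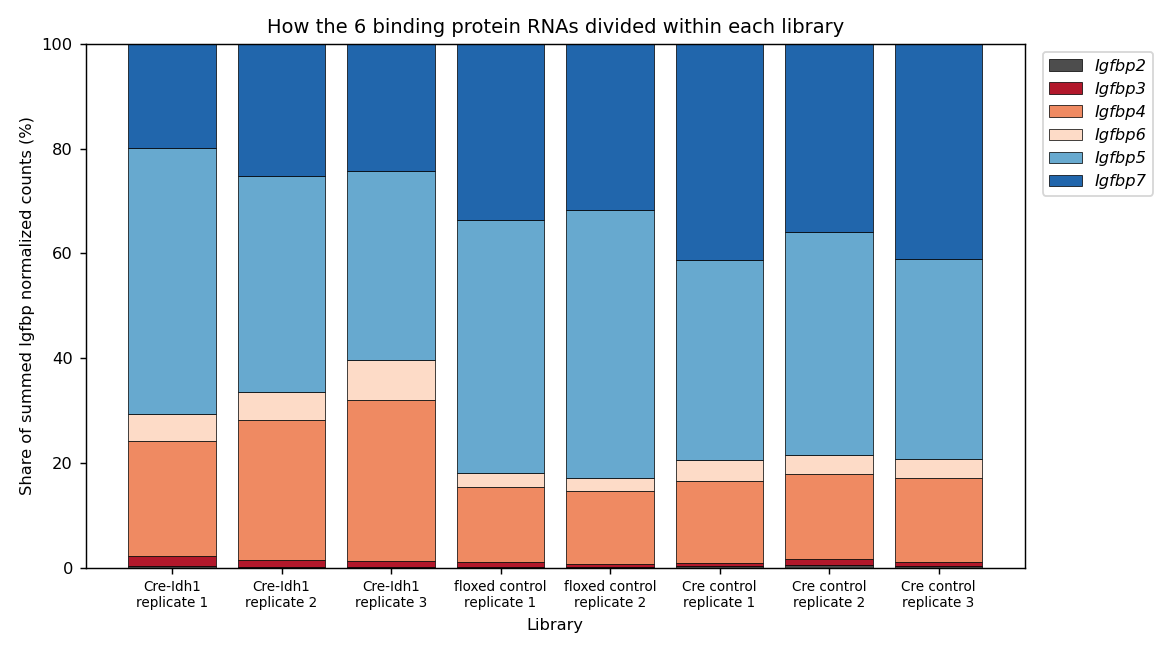
Share of each binding protein gene in the summed normalized counts of the 6 Igfbp members (vertical axis, percent), 1 bar per library, Cre-Idh1 on the left. The Igfbp4 segment is 22.1% to 30.8% in Cre-Idh1 libraries, against 13.9% to 16.2% in the controls, and the Igfbp7 segment at the top is narrower in Cre-Idh1 libraries.

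The promoters of the 4 members called in the fit of all 8 libraries are shown because those genes moved in both directions. Each is the 250 bases before the RefSeq start of the gene, read 5′ to 3′ on the strand of the gene, from RefSeq's GRCm38.p6 assembly. They lie at chr11:7213924-7214173 on the minus strand for Igfbp3, chr11:99040994-99041243 on the plus strand for Igfbp4, chr15:102143936-102144185 on the plus strand for Igfbp6 and chr5:77408046-77408295 on the minus strand for Igfbp7. Capitals mark matches, on either strand, to the TATA box (TATAAA), the GC box (GGGCGG), the CCAAT box (CCAAT) or a forkhead site (GTAAACA), the kind that FOXO factors bind.
Igfbp3: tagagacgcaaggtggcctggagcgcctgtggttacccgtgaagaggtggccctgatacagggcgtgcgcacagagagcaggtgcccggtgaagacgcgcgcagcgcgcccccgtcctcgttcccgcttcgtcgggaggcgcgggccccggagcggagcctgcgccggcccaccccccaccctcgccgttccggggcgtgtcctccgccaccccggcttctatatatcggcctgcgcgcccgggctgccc
Igfbp4: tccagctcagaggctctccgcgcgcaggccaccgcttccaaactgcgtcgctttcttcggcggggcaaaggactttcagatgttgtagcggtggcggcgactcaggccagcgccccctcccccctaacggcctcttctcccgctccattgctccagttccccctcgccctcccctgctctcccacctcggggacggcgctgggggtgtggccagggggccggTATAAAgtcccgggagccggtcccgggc
Igfbp6: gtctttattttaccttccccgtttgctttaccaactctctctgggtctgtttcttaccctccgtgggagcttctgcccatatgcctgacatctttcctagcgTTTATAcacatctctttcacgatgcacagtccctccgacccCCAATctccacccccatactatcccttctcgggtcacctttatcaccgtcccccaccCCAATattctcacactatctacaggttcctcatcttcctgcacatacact
Igfbp7: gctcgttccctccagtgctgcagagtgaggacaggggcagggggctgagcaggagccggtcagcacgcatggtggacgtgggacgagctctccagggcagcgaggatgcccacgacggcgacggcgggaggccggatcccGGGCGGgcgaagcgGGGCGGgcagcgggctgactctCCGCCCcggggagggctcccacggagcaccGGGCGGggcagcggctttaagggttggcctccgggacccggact
In exact matches to these motifs the 4 sequences had little in common. Igfbp4 had 1 TATA box near its start. Igfbp6 had 1 match to the TATA box on the reverse strand, not near its start, and 2 CCAAT boxes. Igfbp7 had 4 GC boxes. Igfbp3 had no exact match to any of the motifs, although it holds the letters tatata near its start. No forkhead site was found in any of them. Of 32851 RefSeq promoters of the same length, 12.4% hold the TATA box, 32.7% the GC box, 33.8% the CCAAT box and 3.17% the forkhead site. The windows of Igfbp3, Igfbp4 and Igfbp7 were rich in G and C (73.2%, 69.2% and 74%) and that of Igfbp6 was not (49.6%), beside a median of 52.4% over all promoters.

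For each of these 4 members, genes among the 3 with the most similar pattern over the 8 libraries are given, found by the root mean square difference of their mean-centred log2 values, among 11185 genes with a mean of at least 100. Igfbp4 was followed by Trib3 (0.0882) and Pard6a (0.116), among others, where Igfbp4 itself deviates from its mean by 0.51. Igfbp7 was followed by Klf15 (0.0644), AC136746.1 (0.0775) and Evi5l (0.0787), against its own 0.31. Igfbp6 was followed by Rps28 (0.12), Gm15417 (0.14) and Arrdc2 (0.14), against 0.58, and reads of the ribosomal protein gene Rps28 may be shared with near-identical copies. Igfbp3 was matched less closely, by Tnfaip2 (0.18), Akna (0.20) and Slit2 (0.21), against 0.56. All points share these 8 libraries, and the likeness is a description without a test.

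The proteases that cleave the binding proteins differed in both directions. Pappa, which encodes the pappalysin that cleaves IGFBP4, had 629, 734 and 609.7 normalized counts in the Cre-Idh1 libraries, against 221 and 201 in the floxed control and 376, 208 and 199 in the Cre control. Pappa2, whose product cleaves IGFBP3 and IGFBP5, had 44.5, 54.9 and 79.7 in the Cre-Idh1 libraries, against 196 and 264 in the floxed control and 209, 162 and 201 in the Cre control. Neither gene's Cre-Idh1 libraries overlapped a control. Pappa rose (log2 fold change 1.39 ± 0.23 against the Cre control, limma adjusted p = 0.00464; 1.63 ± 0.15 against the floxed control, limma adjusted p = 0.00192) and kept its calls whichever library was left out. Pappa2 fell (-1.69 ± 0.24 against the Cre control, limma adjusted p = 0.00229; -1.95 ± 0.30 against the floxed control, limma adjusted p = 0.00758), and its call against the floxed control was lost without floxed control replicate 2 (0.111). Within a library the ratio of Pappa to Pappa2 was 7.65 to 14.1 in Cre-Idh1 cells, against 0.761 to 1.12 in the floxed control and 0.990 to 1.80 in the Cre control.

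Of the 10 proteases and inhibitors tested, 2 rose and 3 fell against the Cre control and 1 rose and 2 fell against the floxed control, beside 19.2% and 14.4% of all genes called in either direction. Besides the pappalysins, Mmp2, the gelatinase A, fell against both (log2 fold changes -0.92 and -0.50), Htra1 rose against the Cre control alone (0.45) and Mmp14, the membrane protease that activates MMP2, fell against it alone (-0.48). The stanniocalcins Stc1 and Stc2, which inhibit the pappalysins, did not pass (log2 fold changes 0.18 and 0.28 against the Cre control and -0.0784 and 0.21 against the floxed control). The list's median log2 fold change was 0.00316 against the Cre control and -0.20 against the floxed control, beside -0.00917 and 0.00202 for all genes. Adam28, Mmp7 and Plg were not analysed here. Genes named as called against 1 control alone lie outside the naming rule and are given to fill out the counts.

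**Figure D5:**
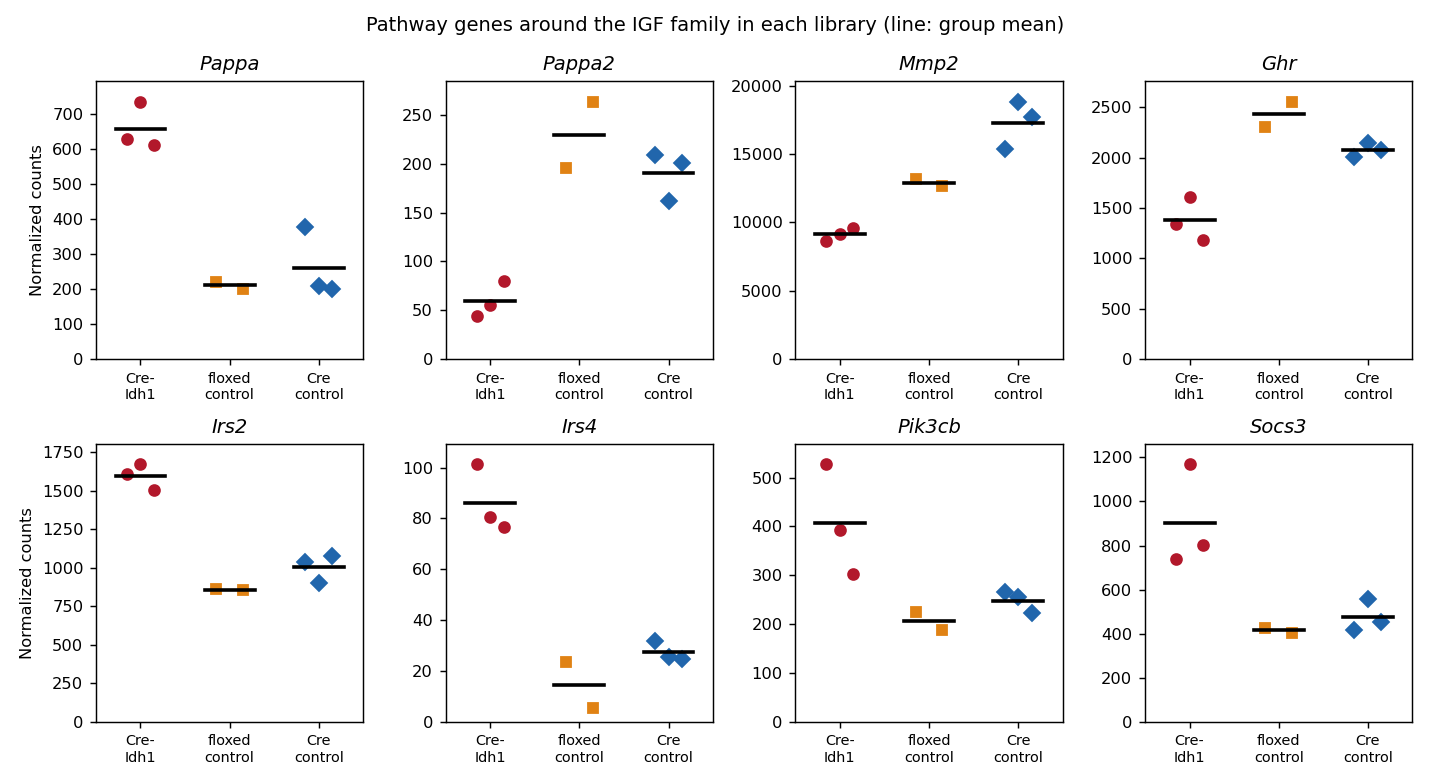
Normalized counts in each library (points) and group means (lines) of 8 pathway genes called in both Cre-Idh1 comparisons, Cre-Idh1 on the left, then the floxed control and the Cre control. Pappa lies at 609.7 to 734 in Cre-Idh1 libraries, above all controls, and Pappa2 at 44.5 to 79.7, below them.

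The next lists are set beside the 19.2% of all genes called against the Cre control and the 14.4% called against the floxed control. Among receptors, carriers and relatives outside the 10 members, 1 of 10 tested passed in each comparison. This was Htra3, a serine protease with an IGFBP-like domain, which fell (log2 fold change -0.54 against the Cre control and -0.64 against the floxed control). The insulin receptor gene Insr, with 2908, 3023 and 2192 normalized counts in Cre-Idh1 libraries, against 2817 and 3236 in the floxed control and 3202, 2826 and 2709 in the Cre control, overlapped both. Of the 6 CCN family genes, whose proteins share the IGFBP domain, Wisp3 fell in both comparisons, with 128, 135 and 147 normalized counts in Cre-Idh1 libraries, against 499 and 423 in the floxed control and 438, 402 and 454 in the Cre control. Its log2 fold changes were -1.65 ± 0.13 against the Cre control and -1.74 ± 0.17 against the floxed control (limma adjusted p = 0.000195 and 0.00208). A second gene of this family rose in each comparison, Nov against the Cre control (0.84) and Ctgf against the floxed control (0.77). The CCN genes called were thus 33.3% of the 6 in each comparison. The median log2 fold change of the receptor list was -0.17 and -0.13, and that of the CCN list was 0.19 and 0.36, against the Cre control and the floxed control in that order.

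Below the receptor, 8 of 34 signalling genes passed against the Cre control, 5 higher and 3 lower, and 4 of 34 against the floxed control, 3 higher and 1 lower. These are 23.5% and 11.8% of the list, near the 19.2% and 14.4% of all genes called. Irs2, an insulin receptor substrate, had 1607, 1671 and 1503 normalized counts in Cre-Idh1 libraries, against 860.2 and 853 in the floxed control and 1039.7, 902 and 1074 in the Cre control. Irs4, another substrate and a low one here, had 101, 80.4 and 76.5 in Cre-Idh1 libraries, against 23.4 and 5.26 in the floxed control and 31.9, 25.6 and 24.8 in the Cre control. Both genes were higher in every Cre-Idh1 library. Irs2 rose (log2 fold change 0.67 ± 0.10 against the Cre control and 0.89 ± 0.11 against the floxed control; limma adjusted p = 0.00294 and 0.00381), as did Irs4 (1.61 ± 0.24 and 2.80 ± 0.55; limma adjusted p = 0.00269 and 0.0174). For Irs4 the value against the floxed control was 1.82 without floxed control replicate 2, its lowest library, and the call was lost (0.0785), as was that of Irs2 (0.0697). The PI3 kinase subunit gene Pik3cb rose (0.68 and 0.94) and Mapk3, the gene of the MAP kinase ERK1, fell (-0.55 and -0.65). Against the Cre control alone, the adaptor gene Grb2 rose (0.31) and Shc1 (-0.30) and Tsc2 (-0.29) fell. Irs1, the substrate best known in IGF signalling, did not pass, with 17231, 19757 and 15865 normalized counts in Cre-Idh1 libraries, against 20572 and 25831 in the floxed control and 23015, 19762 and 19994 in the Cre control, although each Cre-Idh1 library lay below each control library. The list's median log2 fold change was -0.04 against the Cre control and -0.08 against the floxed control.

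FOXO factors are switched off by AKT, and their targets are read as one output of the pathway. Of 15 FOXO factors and targets, 3 rose and 3 fell against the Cre control and 1 rose and 2 fell against the floxed control, beside 19.2% and 14.4% of all genes called. Foxo4 had 2936, 2718 and 2687 normalized counts in Cre-Idh1 libraries, against 4804 and 4523 in the floxed control and 4459, 4193 and 4411 in the Cre control, and fell (log2 fold change -0.65 ± 0.08 against the Cre control and -0.75 ± 0.10 against the floxed control; limma adjusted p = 0.00119 and 0.00498). The target genes did not move one way: Klf15 fell (-0.57 and -0.63), Bcl6 rose (0.41 and 0.58), and against the Cre control alone Fbxo32 (0.75) and Sesn3 (0.55) rose and Trim63 (-1.13) fell. The list's median was -0.14 against the Cre control and -0.19 against the floxed control.

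In the growth hormone axis, which drives Igf1 in many tissues, 3 of 8 genes rose and 1 fell against the Cre control, and 1 rose and 1 fell against the floxed control. Of all genes 9.8% rose and 9.39% fell against the Cre control, and 7.47% rose and 6.96% fell against the floxed control. The receptor gene Ghr had 1339, 1604 and 1183 normalized counts in Cre-Idh1 libraries, against 2306 and 2555 in the floxed control and 2005, 2149 and 2076 in the Cre control. It fell in both (log2 fold change -0.60 ± 0.12 against the Cre control and -0.83 ± 0.15 against the floxed control; limma adjusted p = 0.00893 and 0.0123). Socs3, a feedback inhibitor of JAK signalling, had 737, 1169 and 802 normalized counts in Cre-Idh1 libraries, against 426 and 405 in the floxed control and 418, 557 and 454 in the Cre control. It rose in both (0.90 ± 0.18 against the Cre control and 1.09 ± 0.20 against the floxed control; limma adjusted p = 0.0116 and 0.0153). Its relatives Socs1 (0.63) and Socs2 (0.84) rose against the Cre control alone. The list's median was -0.10 and -0.04.

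The 14 pathway genes called against both controls did not all depend on the single libraries to the same degree. Against the Cre control 8 of the 14 kept their calls whichever library was left out, namely Pappa, Pappa2, Mmp2, Wisp3, Irs2, Irs4, Foxo4 and Ghr. The other 6 (Htra3, Pik3cb, Mapk3, Klf15, Bcl6 and Socs3) each lost the call at least once: 4 without Cre control replicate 1 (adjusted p up to 0.0958), 5 without replicate 2 (up to 0.114), 6 without replicate 3 (up to 0.157), 4 without Cre-Idh1 replicate 1 (up to 0.0996) and 3 without Cre-Idh1 replicate 2 (up to 0.0884). Against the floxed control, with its 2 libraries, Pappa and Wisp3 kept theirs throughout. Leaving out floxed control replicate 2 ended 12 of the 14 calls (adjusted p up to 0.303), floxed control replicate 1 ended 9 (up to 0.187), and Cre-Idh1 replicate 1 or 2 ended 5 each (up to 0.0832 and 0.0981). Scaling by total reads ended the calls of Pik3cb and Bcl6 against the Cre control (0.0888 and 0.0876) and the floxed control (0.0557 and 0.0516), and with embryo sex as a covariate Bcl6 missed the threshold against the Cre control (0.0553).

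Markers of other cells in the sternal digest were read beside these results. For scale, 9.8% of all genes rose and 9.39% fell against the Cre control. Against the floxed control 7.47% rose and 6.96% fell. Against the Cre control 3 of 10 perichondrial and fibroblast markers fell (Prrx1, Pdgfra and Lum), and the same 3 fell against the floxed control. Their list summed to 112538 to 161238 normalized counts in Cre-Idh1 libraries, against 141179 to 170675 in the floxed control and 97232 to 158799 in the Cre control. Of 7 osteoblast markers 3 fell against the Cre control and 2 against the floxed control, and the sum was 2546 to 6328 in Cre-Idh1 libraries, against 4461 to 6677 in the floxed control and 3813 to 5119 in the Cre control. Of 8 mural markers 1 rose and 1 fell against the Cre control and 2 rose and 1 fell against the floxed control. Their sum of 95652 to 97825 in Cre-Idh1 libraries, against 68332 to 73409 in the floxed control and 75270 to 91342 in the Cre control, was mostly Cspg4, which chondrocytes also express. Of the skeletal muscle markers 1 rose and 1 fell of 4 tested against the Cre control and 1 fell of 7 against the floxed control, with Ckm and Myh8 at 0 in at least 1 library and a sum of 405 to 529 in Cre-Idh1 libraries, against 1884 to 2110 in the floxed control and 1488 to 1559 in the Cre control. That sum was mostly Tnnt3, a troponin gene that fell against both controls. Without it, a sum added after its values were seen, the other 6 listed muscle genes gave 214 to 329.8 in Cre-Idh1 libraries, against 72.7 to 519 in the floxed control and 74.5 to 90.6 in the Cre control. Of 10 chondrocyte markers 2 fell against the Cre control (Matn1 and Matn3) and 1 against the floxed control (Matn3). The part of any of these in the values of the binding proteins was not tested.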

How the data were processed

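Poly(A) RNA of 8 libraries was sequenced with a stranded kit, per the labels' protocols. The submitters' processing notes list Trim Galore, cutadapt, STAR, HTSeq and DESeq2; the sources used here give neither versions, build nor the use of strand in counting. The signal used is the normalized expression that the authors deposited in 3 tables, 1 per pair of groups, which hold identical values for a shared library. Each value is a whole read count divided by a size factor: 100% of values came out whole within 0.001 reads. The tables also hold the authors' log2 fold changes, Wald scores, p-values and adjusted p-values, per the file headers.

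The values were tested as log2(value + 1) with limma 3.58.1 (mean-variance trend, two-sided) in R 4.3.3, within each pair of groups, keeping genes that reached 10 in no fewer libraries than the smaller of the groups has, with Benjamini-Hochberg adjustment over all genes tested. A fit of all 8 libraries set Cre-Idh1 against the mean of both control groups. This scale understates changes of low genes. The test was also run on simulated counts in which 200 genes were changed, fewer than passed in the Cre-Idh1 comparisons. The outcome of that run is not reported here. edgeR 4.0.16 and DESeq2 1.42.0 were run on the recovered reads as alternatives, beside other pseudocounts, filters, scalings, covariates and left-out libraries. Depth was 31860422 to 44988540 reads. Lengths came from GENCODE annotation, and promoters from RefSeq.

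The genes and lists were chosen with earlier results of these data known. Named were the 10 members, the 3 genes most like each member called in the 8-library fit, and pathway genes called against both controls, with H19 added after its values were seen. Some genes that this rule or the lists hold are not reported here. Replicates were numbered in record order.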

Additional observations from a re-analysis of the deposited data

How the results depend on the processing

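No paired analysis was possible because replicates are numbered in record order and the numbers pair no samples. Igfbp4 and Igfbp6 kept their calls against both controls, and in the fit of all 8 libraries, under each setting that kept all libraries. The number of the 10 members called against the Cre control was 2, and 6 by DESeq2, 4 with all 8 libraries in 1 fit and 5 at an adjusted p under 0.1. It was 3 with total-read scaling and 3 with embryo sex as a covariate. Against the floxed control it was 2, and 4 by DESeq2 and at an adjusted p under 0.1, and 3 with all 8 libraries in 1 fit. Between the floxed control and the Cre control it was 0, and 1 by DESeq2. Against the mean of both controls it was 4, and 5 by edgeR and 6 by DESeq2. The number of genes called against the Cre control was 2849 of 14851 tested, and 1898 with embryo sex as a covariate and 2562 with total-read scaling. It was higher by DESeq2 (3453), with all 8 libraries in 1 fit (3360 of 15505) and at an adjusted p under 0.1 (4093). Against the floxed control it was 2196 of 15212, and 3573 of 15505 with all 8 libraries in 1 fit and 3554 at an adjusted p under 0.1. There it was 3087 by DESeq2 and 1927 with total-read scaling. Between the controls it was 2 of 14870, and 86 by DESeq2, 1 with all 8 libraries in 1 fit, and 3 with total-read scaling or at an adjusted p under 0.1. Against the mean of both controls it was 4845 of 15505, and 4909 by edgeR, 5200 by DESeq2, 4374 with total-read scaling and 6191 at an adjusted p under 0.1. Scaling by total reads turned 2 small values that had not passed, Igf1r against the Cre control (-0.0214) and Igfbp7 between the controls (-0.0215).

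Leaving out 1 library at a time gave 1168 to 3854 genes and 1 to 3 members against the Cre control, 186 to 3752 genes and 0 to 4 members against the floxed control, 1 to 102 genes and 0 members between the controls, and 3073 to 5229 genes and 2 to 4 members against the mean of both controls. The log2 fold changes that changed sign had not passed with all libraries. Against the Cre control they ranged from -0.11 to 0.62 for Igf1, -0.0217 to 0.11 for Igf1r and -0.49 to 0.00312 for Igfbp2. Against the floxed control the range was -0.20 to 0.54 for Igf1. Between the controls they were -0.0520 to 0.28 for Igf1, -0.0778 to 0.0375 for Igf1r, -0.15 to 0.47 for Igfbp3, -0.0442 to 0.13 for Igfbp7, -0.0258 to 0.21 for Wisp3, -0.41 to 0.0509 for Pappa and -0.0109 to 0.13 for Klf15. Against the mean of both controls they were -0.15 to 0.58 for Igf1, -0.00336 to 0.13 for Igf1r, -0.0804 to 0.29 for Igfbp2 and -0.0384 to 0.13 for Igfbp5. Fits that leave 1 floxed control library assume that it varies like the other group. The cause of these changes was not tested, other than that fewer libraries enter the fit. Reads per library were 17 to 44 for Igfbp2 and 30 to 99 for Igf1, and the size of difference that such counts could show was not tested.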
